A study of Sus scrofa with 22 samples.

Results

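The secreted proteins of the uterine fluid were followed here through 6 genes of the porcine endometrium: ACP5 (the gene of uteroferrin), UABP-2 (uteroferrin-associated basic protein 2), TCN1 (transcobalamin 1), MEP1B (meprin A subunit beta), PTI (a trypsin inhibitor) and RBP4 (retinol binding protein 4). They were chosen by their place among secreted or gland-marking genes and selected on being listed, with measured counts, for at least 1 cell type, which makes 6 of the 12401 genes listed. The levels in the 3 cell types entered that choice, so the comparison of cell types is a description without a test. The comparison of pregnant with control gilts was tested, but the genes were chosen with earlier results of these data known. That test is therefore not independent of the choice. The members called, TCN1 in GE and MEP1B in LE, met the listing level only through the group where they were high. All 6 genes were listed for glandular epithelium (GE), 4 for luminal epithelium (LE), where UABP-2 and TCN1 were not listed, and 5 for stroma (S), where TCN1 was not listed.

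The cells were cut by laser capture microdissection from frozen endometrium stained with cresyl violet. The 8 gilts were German Landrace and Piétrain crossbreeds whose ovulation was synchronized with PMSG and hCG in both groups. The 4 pregnant gilts (01, 03, 05 and 14) had been inseminated with semen and the 4 nonpregnant controls (02, 04, 06 and 13) with the supernatant of centrifuged semen, and all endometria came from Day 12. LE and GE libraries came from every gilt, and S libraries of 3 gilts per group were analysed (controls 02, 04 and 13, pregnant 01, 05 and 14), so 22 libraries were used. Captured stroma is tissue between the glands and not a pure cell population. By the study's account it mixes fibroblasts with other cells, mainly immune cells, and areas with many blood vessels were left out.

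The endometrial glands of the pig secrete a protein-rich fluid, the histotroph, that feeds the conceptus before and around implantation, because the porcine placenta does not invade the uterine wall. Uteroferrin is an iron-containing purple acid phosphatase and a major glandular product under progesterone. UABP-2 belongs to the uterine serpins, inhibitor-like proteins that are found in a complex with uteroferrin. Transcobalamin 1 binds vitamin B12, meprin beta is a membrane-anchored metalloprotease of the astacin family that can be shed, PTI is a Kunitz-type inhibitor of trypsin-like proteases, and RBP4 carries retinol.

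The upstream sequences of 4 genes are shown because ACP5, UABP-2 and MEP1B shared a high level in GE and PTI did not. Each run is 5′ to 3′ in the sense of the gene, from 250 bases before to 50 bases after the annotated start in the Sscrofa11.1 reference of RefSeq, in lower case with matches to the searched motifs in capitals. The motifs, searched on both strands, were the half-site of the progesterone and glucocorticoid receptors, TGTTCT, found in 12.1% of 19548 promoters of this length, the estrogen receptor half-site, TGACC, found in 37.6%, the FOXA motif, TGTTTAC, found in 2.64%, and the TATA box, TATAAA, found in 10.9%. None of these motifs overlapped another in the runs below. The windows were chr2:70209806-70210105, minus strand for ACP5, chr7:115696583-115696882, minus strand for UABP-2, chr6:116014771-116015070, plus strand for MEP1B and chr17:47780697-47780996, minus strand for PTI.
ACP5: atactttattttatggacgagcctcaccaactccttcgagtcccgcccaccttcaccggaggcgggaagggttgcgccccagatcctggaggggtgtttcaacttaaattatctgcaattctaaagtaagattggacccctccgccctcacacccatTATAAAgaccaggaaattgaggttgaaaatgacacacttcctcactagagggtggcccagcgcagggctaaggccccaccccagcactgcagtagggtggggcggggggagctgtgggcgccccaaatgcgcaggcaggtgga
UABP-2: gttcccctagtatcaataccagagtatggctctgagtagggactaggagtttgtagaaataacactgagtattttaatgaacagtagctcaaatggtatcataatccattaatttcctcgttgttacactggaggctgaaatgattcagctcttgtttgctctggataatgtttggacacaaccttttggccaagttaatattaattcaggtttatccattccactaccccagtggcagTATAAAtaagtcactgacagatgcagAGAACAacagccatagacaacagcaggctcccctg
MEP1B: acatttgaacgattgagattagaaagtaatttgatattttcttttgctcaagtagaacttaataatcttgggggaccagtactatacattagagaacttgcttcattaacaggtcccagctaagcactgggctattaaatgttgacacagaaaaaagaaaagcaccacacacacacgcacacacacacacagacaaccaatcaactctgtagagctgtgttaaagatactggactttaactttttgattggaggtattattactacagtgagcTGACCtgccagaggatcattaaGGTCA
PTI: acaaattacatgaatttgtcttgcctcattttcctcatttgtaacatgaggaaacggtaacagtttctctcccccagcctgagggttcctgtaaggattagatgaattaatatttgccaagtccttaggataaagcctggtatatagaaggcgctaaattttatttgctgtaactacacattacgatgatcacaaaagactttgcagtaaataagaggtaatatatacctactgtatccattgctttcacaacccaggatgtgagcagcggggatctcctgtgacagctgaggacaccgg

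ACP5 and UABP-2 each held 1 TATAAA, and UABP-2 also held 1 TGTTCT, read on the opposite strand as AGAACA. MEP1B held 2 copies of TGACC, of which 1 on the opposite strand is written GGTCA, and PTI held none of the 4 motifs. Of the promoters not shown, that of TCN1 held 2 copies of TGACC and that of RBP4 held TATAAA on both strands in 1 overlapping stretch. TGTTTAC was in none of the 6. A match describes letters in the window and not a bound site.

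The LE libraries held 893912 to 4020796 counts, the GE libraries 1994670 to 3702061 counts and the S libraries 1344151 to 3278733 counts. Every gene listed for LE reached at least 7.07 CPM (the count scaled to library size) in 3 libraries, every gene listed for GE 6.91 CPM in 3 libraries and every gene listed for S 7.93 CPM in 2 libraries. The S libraries were not free of epithelial transcripts: the summed level of 6 epithelial markers (EPCAM, CDH1, KRT8, KRT18, KRT19 and CLDN4) was 1100 to 4007 CPM in S against 718 to 3170 CPM in GE and 2706 to 4115 CPM in LE. FOXA2, a transcription factor of uterine glands, was at 11.3 to 133 CPM in S and 16.6 to 109 CPM in GE, and was not listed for LE. Likewise, the sum of 8 fibroblast markers (VIM, COL1A1, COL1A2, COL3A1, DCN, LUM, PDGFRA and PDGFRB) did not separate S from the epithelia, at 4709 to 59660 CPM in S, 4359 to 46220 CPM in GE and 7756 to 20630 CPM in LE. Beside the S library of gilt 01, which had the highest fibroblast sum, the S libraries stayed between 4709 and 12110 CPM. The GE library of gilt 02 stood apart from the other GE libraries, with the lowest epithelial sum (718 CPM) and the highest fibroblast sum (46220 CPM). All levels below are CPM on 1 scale common to the 22 libraries, and in captured tissue a lower level can mean fewer cells of a type or less RNA per cell, which cannot be told apart.

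ACP5, MEP1B and, between GE and S, UABP-2 were highest in GE, PTI was highest in LE, and RBP4 had no cell type that was highest in every gilt. Together the members made up 0.264% to 1.65% of all counts in the GE libraries, 0.0729% to 1.06% in S and 0.0762% to 0.281% in LE. Of the 4 genes listed for both epithelia, ACP5 and MEP1B were higher in GE than in LE in 8 of 8 gilts, which held for 8.8% of the 10851 genes listed for both, and PTI was lower in GE in 8 of 8 gilts, as were 8.97% of genes. Against S, ACP5, UABP-2 and MEP1B were higher in GE in 6 of 6 gilts (3.26% of 11124 genes). These counts follow from the choice of the members and were not tested.

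**Figure D1:**
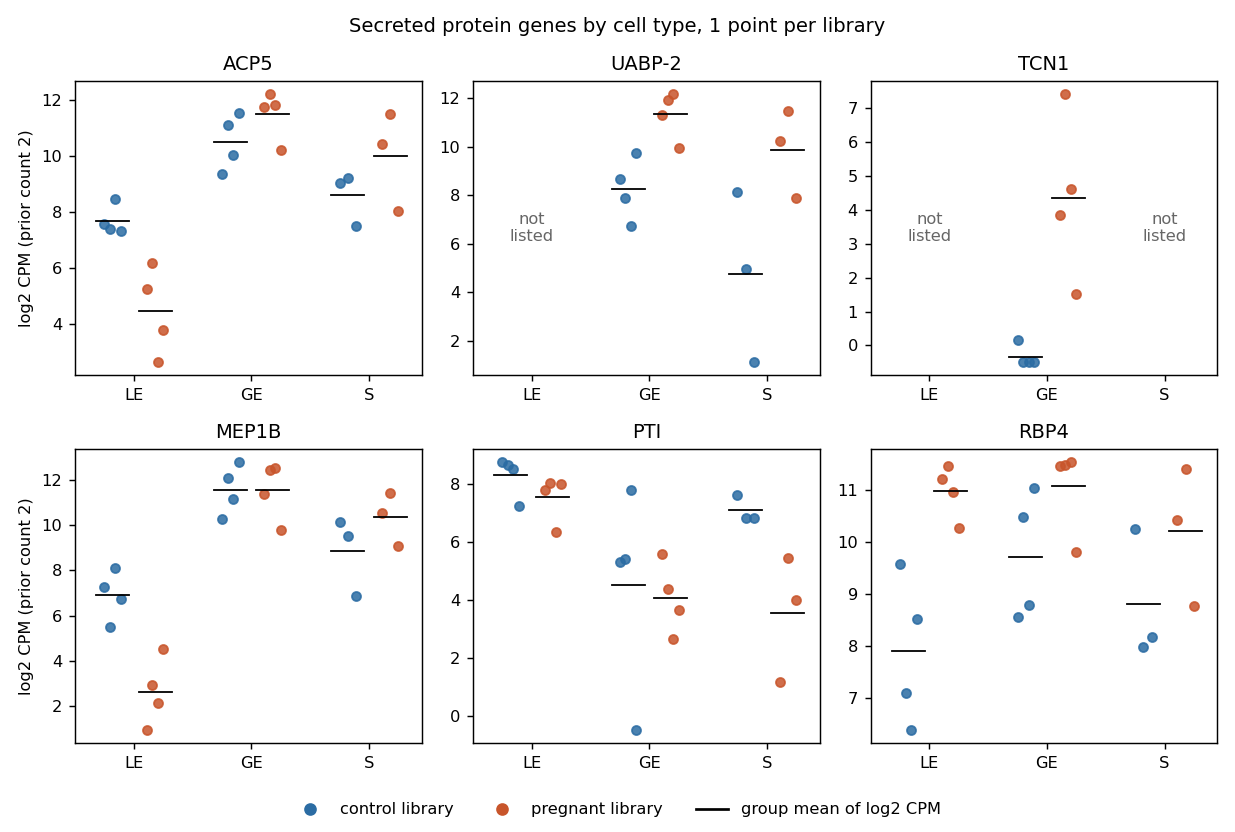
Level of each gene (vertical axis, log2 CPM with a prior count of 2) in LE, GE and S. Each point is 1 library, blue for control and orange for pregnant gilts, and bars are group means. ACP5 and MEP1B sit lowest in LE of pregnant gilts, TCN1 has counts above the control level in the 4 pregnant GE libraries, and RBP4 in LE is higher in the 4 pregnant gilts.

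ACP5 (gene ID 397414) lies on chromosome 2 at 70206159 to 70209855 on the minus strand (Sscrofa11.1), and none of its 50-base exon windows recur in another annotated gene. In GE, the control libraries of gilts 02, 04, 06 and 13 were at 647, 2159, 1031 and 2968 CPM, and the pregnant libraries of gilts 01, 03, 05 and 14 at 3387, 4650, 3621 and 1174 CPM. The groups overlapped in GE, since pregnant gilt 14 was below controls 04 and 13. In LE, the same controls were at 187, 166, 353 and 158 CPM and the pregnant gilts at 37.3, 72.2, 5.55 and 12.98 CPM, so that every pregnant library was below every control, as for 12.6% of the 11415 genes listed for LE. In S, the controls 02, 04 and 13 were at 525, 592 and 181 CPM and the pregnant gilts 01, 05 and 14 at 1363, 2860 and 260 CPM, with overlap.

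Within a gilt, ACP5 in GE exceeded that in LE by 2.81 ± 1.34 on the log2 scale in controls (SD, n = 4) and by 7.02 ± 1.45 in pregnant gilts (SD, n = 4). The smallest difference in a pregnant gilt (63.8-fold) was above the largest in a control (18.7-fold), a separation in this direction that 5.15% of the 10851 genes showed. Between pregnant and control gilts, ACP5 in LE differed by a log2 fold change of -2.82 (SE 0.65). Its adjusted p of 0.0125 by edgeR's quasi-likelihood test missed the 0.01 threshold applied in LE. The unadjusted p by that test was 0.0014, below the unadjusted threshold of 0.0021 applied in GE and S. The likelihood ratio test and DESeq2 called ACP5 in LE, at adjusted p-values of 0.000274 and 6.71e-05. Without gilt 03 the log2 fold change was -3.78 and was called (adjusted p = 0.00304, edgeR quasi-likelihood). Without each other gilt it was not called, at adjusted p-values between 0.018 and 0.0391 by the same test. In GE the log2 fold change was 0.92 (SE 0.55, adjusted p = 0.719) and in S 1.83 (SE 0.84, adjusted p = 0.435) by the same test, neither called.

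UABP-2 (gene ID 396843, chromosome 7, 115685830 to 115696632, minus strand) was listed for GE and S and shares no exon window with other genes. In GE, control gilts 02, 04, 06 and 13 were at 407, 237, 107 and 865 CPM and pregnant gilts 01, 03, 05 and 14 at 2589, 3909, 4598 and 985 CPM. The lowest pregnant library was thus above the highest control, a separation shown in this direction by 2.81% of the 11676 genes listed for GE. The level was 7.42-fold higher in the pregnant group, a log2 fold change of 2.89 (SE 0.70) with an unadjusted p of 0.00262 and an adjusted p of 0.32 by edgeR's quasi-likelihood test, just short of the unadjusted threshold of 0.0021 applied in GE and S. The likelihood ratio test and DESeq2 called UABP-2 in GE, as did the quasi-likelihood test without gilt 13 (log2 fold change 3.58) or gilt 14 (3.18). Without each other gilt it was not called, at unadjusted p-values between 0.00412 and 0.0102 (edgeR quasi-likelihood). With the 6 gilts that had an S library the unadjusted p was 0.0119 by the same test. The summed epithelial markers also separated the groups in GE, at 718, 1703, 2216 and 1912 CPM in control gilts 02, 04, 06 and 13 and 2222, 2648, 3170 and 2534 CPM in pregnant gilts 01, 03, 05 and 14. The part of this difference in the UABP-2 and TCN1 levels was not tested.

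In S, UABP-2 was at 280, 30.9 and 1.47 CPM in control gilts 02, 04 and 13 and at 1222, 2882 and 235 CPM in pregnant gilts 01, 05 and 14. Pregnant gilt 14 was below control 02, so the groups overlapped, and the log2 fold change of 3.81 (SE 1.61, unadjusted p = 0.049, adjusted p = 0.397, edgeR quasi-likelihood) was not called. Relative to GE of the same gilt, the S level of UABP-2 was 68.8%, 13.3% and 0.252% in the controls 02, 04 and 13 and 47.2%, 62.7% and 23.9% in the pregnant gilts 01, 05 and 14. The S level of ACP5 relative to GE in the same gilts was 81.2%, 27.5% and 6.10% in controls and 40.3%, 79.0% and 22.2% in pregnant gilts. Gilts with a high share for 1 of these genes had a high share for the other, and the part of epithelial RNA in the S libraries was not tested.

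TCN1 (gene ID 396873, chromosome 2, 11633377 to 11646261, plus strand) was listed for GE only and rose in the pregnant gilts from near-zero counts. In the control GE libraries of gilts 02, 04, 06 and 13 there were 1, 0, 0 and 0 counts, and in the pregnant libraries of gilts 01, 03, 05 and 14 there were 27, 539, 80 and 6 counts. A count of 0 in gilts 04, 06 and 13 allows up to 1.49, 0.853 and 0.821 CPM (3 counts), while the pregnant libraries were at 13.7, 169, 23.6 and 2.13 CPM. The 4 pregnant libraries were above the 4 controls, as for 2.81% of genes listed for GE, but gilt 03 alone held most of the 652 pregnant counts.

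With 1 control count in all, the depth-adjusted ratio of the summed counts was 667, with a 95% interval of 119 to 26400 that covers counting error only. Without gilt 03, 113 pregnant counts gave a ratio of 161 (interval 28.3 to 6400). TCN1 passed the threshold in GE with an unadjusted p of 0.000789 (adjusted p = 0.216, edgeR quasi-likelihood), and was the only member called of 6 there, beside 0.694% of all genes. TCN1 met the listing level for GE only through pregnant gilts 01, 03 and 05, so it entered the test through the group where it was high. At a false discovery rate of 0.01, 1 gene of 11676 was called in GE and it was not a member. The call was lost without gilt 02, 04, 06 or 13, with unadjusted p-values of 0.00652, 0.00345, 0.0038 and 0.00302. Of the exon windows of TCN1, 5.37% recur in the overlapping LOC102158414, so a small part of these counts cannot be assigned to either gene with certainty.

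MEP1B (gene ID 100516141, chromosome 6, 116015021 to 116049796, plus strand) fell in LE and showed no difference past the threshold in GE. In GE, the control gilts 02, 04, 06 and 13 were at 1225, 4327, 2328 and 7089 CPM and the pregnant gilts 01, 03, 05 and 14 at 2677, 5615, 5985 and 889 CPM. Both the highest and the second-lowest library were controls, the groups overlapped broadly, and the log2 fold change was 0.02 (SE 0.67, adjusted p = 0.997, edgeR quasi-likelihood). In LE, the same controls were at 152, 44.4, 273 and 106 CPM and the pregnant gilts at 1.20, 6.90, 3.70 and 22.5 CPM, with 1 count in the shallow library of gilt 01. Every pregnant library was below every control, as for ACP5 (12.6% of genes). MEP1B met the listing level for LE in 3 libraries only through the controls, the group where it was high.

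MEP1B in LE was 14.8-fold lower in pregnant gilts, a log2 fold change of -3.89 (SE 0.71) with an adjusted p of 0.00401 by edgeR's quasi-likelihood test. It was the only member of the 4 listed that was called in LE, where 10% of all genes were called. The call was lost without gilt 02, 03, 05 or 06, at adjusted p-values between 0.0115 and 0.0155, and with the 6 gilts that had an S library (0.0323, edgeR quasi-likelihood). The log2 fold change was -5.05 without gilt 14 and between -4.20 and -3.38 without each other gilt. In S, MEP1B was at 1137, 728 and 116 CPM in control gilts 02, 04 and 13 and at 1480, 2752 and 544 CPM in pregnant gilts 01, 05 and 14, which overlapped (log2 fold change 1.30, SE 0.86, adjusted p = 0.603, edgeR quasi-likelihood). Within a gilt, the level in GE exceeded that in LE by 4.68 ± 1.90 on the log2 scale in controls and by 8.91 ± 2.47 in pregnant gilts (SD, n = 4 each).

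**Figure D2:**
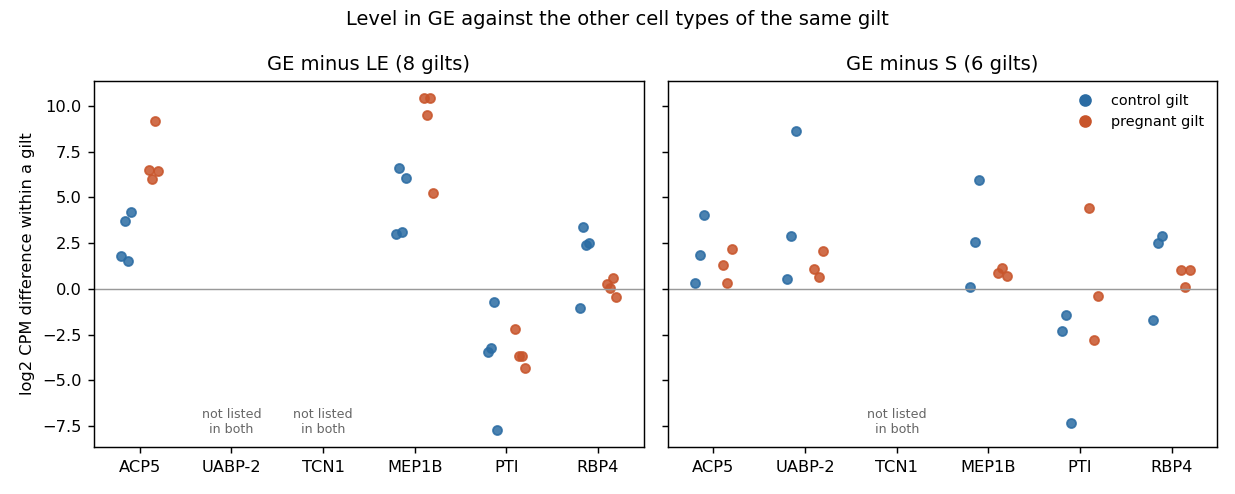
Difference in log2 CPM between GE and LE of the same gilt (left, 8 gilts) and between GE and S (right, 6 gilts) for each gene, with blue points for control and orange points for pregnant gilts. Points above 0 are higher in GE: ACP5 and MEP1B lie above 0 in all gilts of both panels, PTI lies below 0 in all gilts on the left, and RBP4 of the 4 pregnant gilts lies close to 0 on the left.

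PTI (gene ID 100156830, chromosome 17, 47773060 to 47780746, minus strand) had the opposite distribution, with the highest levels in LE. In LE, the control gilts 02, 04, 06 and 13 were at 424, 395, 364 and 150 CPM and the pregnant gilts 01, 03, 05 and 14 at 219, 257, 79.6 and 252 CPM, which overlapped. In GE, the same controls were at 38.5, 41.7, 220 and 0 CPM and the pregnant gilts at 47.1, 19.7, 5.60 and 11.7 CPM. Control gilt 06 was above all other GE libraries for PTI, and in gilt 13 a count of 0 allows up to 0.821 CPM. In S, the controls 02, 04 and 13 were at 193, 111 and 112 CPM and the pregnant gilts 01, 05 and 14 at 1.55, 42.9 and 15.3 CPM, so that every pregnant library was below every control, as for 10.1% of the 11532 genes listed for S.

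The log2 fold change of PTI in pregnant against control gilts was -2.73 in S (SE 0.82, unadjusted p = 0.0119, adjusted p = 0.256), -0.73 in LE (SE 0.40, adjusted p = 0.218) and -1.85 in GE (SE 1.26, adjusted p = 0.749) by edgeR's quasi-likelihood test. None was called, and no member of the 5 listed for S was called, beside 1.47% of all genes there. At an unadjusted p under 0.05 (edgeR quasi-likelihood), 2 of the 5 members passed in S (PTI and UABP-2), beside 12.5% of all genes there. The likelihood ratio test and DESeq2 each called 1 member (PTI), beside 463 and 512 of the 11532 genes. Within a gilt, PTI in LE exceeded that in S by 1.12 ± 0.70 on the log2 scale in controls and by 3.82 ± 2.86 in pregnant gilts (SD, n = 3 each).

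PTI lies in a group of trypsin inhibitor genes, and 14.8% of its exon windows recur elsewhere, 11.7% in LOC100158011 and 11.4% in UPTI (uterine plasmin/trypsin inhibitor), so the counts of these neighbours may be mixed in part. These neighbours were named after their values were seen. UPTI, the more abundant neighbour, had a mean of 2313 ± 270 CPM in control LE and 1802 ± 312 CPM in pregnant LE (SD, n = 4 each). In the control GE libraries of gilts 02, 04, 06 and 13 UPTI was at 331, 272, 1827 and 1.64 CPM, high and low in the same gilts as PTI. In S, UPTI was at 1715, 1314 and 2029 CPM in controls 02, 04 and 13 and at 127, 849 and 282 CPM in pregnant gilts 01, 05 and 14. LOC100158011 was at 96.7, 39.1 and 53.3 CPM against 0, 20.8 and 2.15 CPM. Neither overlapped, as for 10.1% of genes listed for S. The 3 inhibitor genes therefore had the same order of groups in S, and neither neighbour was called there (adjusted p = 0.298 for UPTI and 0.327 for LOC100158011, edgeR quasi-likelihood). The part of luminal RNA in the control S libraries was not tested.

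**Figure D3:**
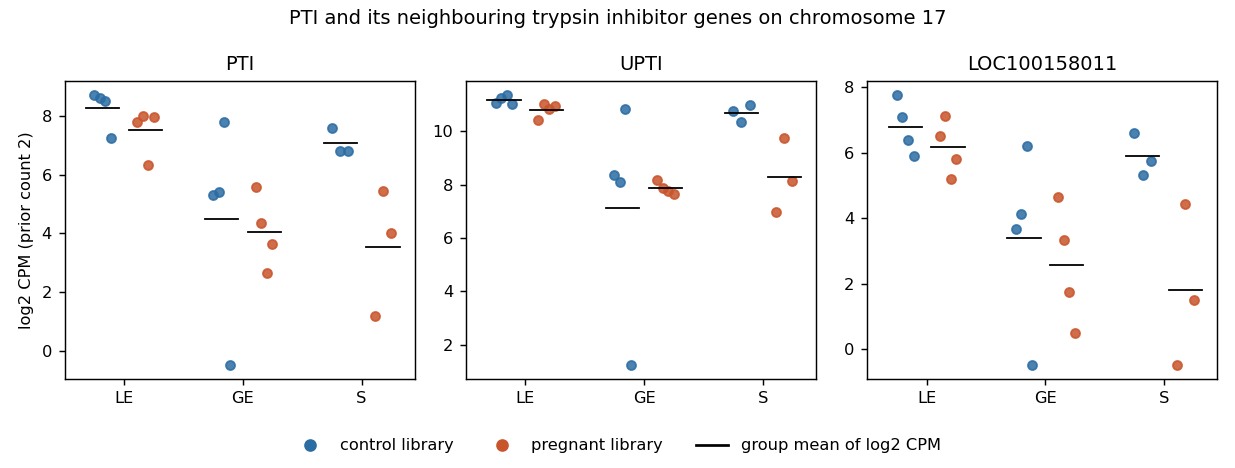
Level of PTI and of its chromosome 17 neighbours UPTI and LOC100158011 (vertical axes, log2 CPM with a prior count of 2) by cell type. Each point is 1 library, blue for control and orange for pregnant gilts, and bars are group means. All 3 genes are high in LE, spread widely in control GE with gilt 13 lowest, and are lower in the 3 pregnant than in the 3 control S libraries.

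RBP4 (gene ID 397124, chromosome 14, 105037360 to 105044552, minus strand) overlaps the span of PDE6C without sharing exon bases with it. Of the members, RBP4 was the one whose LE level was higher in pregnancy. In LE, the control gilts 02, 04, 06 and 13 were at 769.8, 136, 83.3 and 369 CPM and the pregnant gilts 01, 03, 05 and 14 at 2368, 2812, 1988 and 1238 CPM. Every pregnant library was above every control, as for 14.1% of genes listed for LE. The level was 6.16-fold higher in the pregnant group, a log2 fold change of 2.62 (SE 0.62). Its adjusted p of 0.0134 by edgeR's quasi-likelihood test missed the threshold of 0.01. The unadjusted p by that test was 0.00154, below the unadjusted threshold of 0.0021 applied in GE and S. The likelihood ratio test and DESeq2 called RBP4 in LE, at adjusted p-values of 0.000219 and 4.43e-05. Without gilt 02 the log2 fold change was 3.41 (adjusted p = 0.00417) and without gilt 14 it was 2.81 (adjusted p = 0.00892), both called (edgeR quasi-likelihood). Without each other gilt it was not called, at adjusted p-values between 0.0229 and 0.0379 by the same test.

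In GE, RBP4 was at 376, 1427, 440.0 and 2113 CPM in the same controls and at 2814, 2853, 2966 and 899.6 CPM in the same pregnant gilts. Of the pregnant gilts, 01, 03 and 05 were above all controls and gilt 14 was below controls 04 and 13 (log2 fold change 1.14, SE 0.61, adjusted p = 0.702, edgeR quasi-likelihood). In S, the controls 02, 04 and 13 were at 1219, 254 and 290 CPM and the pregnant gilts 01, 05 and 14 at 1383, 2718 and 437 CPM, which overlapped (log2 fold change 1.38, SE 0.84, adjusted p = 0.571, edgeR quasi-likelihood). Within a gilt, GE exceeded LE by 1.82 ± 1.95 on the log2 scale in controls and by 0.10 ± 0.44 in pregnant gilts (SD, n = 4 each), so that in pregnant gilts both epithelia held RBP4 at levels that differed by less than the spread between gilts.

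Compared per kilobase of exon, the pregnant GE libraries held UABP-2 at 2115 ± 1115 CPM per kilobase, ACP5 at 1542 ± 703 and MEP1B at 992 ± 637 (SD, n = 4). RBP4 followed at 429 ± 178 CPM per kilobase of all annotated exons, or 1979 by the length of its longest mRNA, because a long non-coding transcript enters the exon total of this gene. TCN1 at 33.8 ± 50.8 and PTI at 18.6 ± 16.3 CPM per kilobase were lowest. Neighbours in this order among UABP-2, ACP5 and MEP1B did not differ beyond their spread. In control GE the order began with MEP1B at 979 ± 673 CPM per kilobase, ACP5 at 818 ± 510 and UABP-2 at 283 ± 232, the level of MEP1B being near that in pregnant GE. RBP4 was at 196 ± 150 in control GE. By the longest mRNA it was at 904.5, between MEP1B (1139) and ACP5 (855.8) by the same length. In LE, PTI was highest per kilobase of exon in controls (296 ± 110), ahead of ACP5 (104 ± 44.2), RBP4 (61.1 ± 56.2, or 282 by its longest mRNA) and MEP1B (37.6 ± 25.3). In pregnant LE the order became RBP4 (378 ± 120), PTI (179 ± 73.8), ACP5 (15.4 ± 14.4) and MEP1B (2.24 ± 2.50 CPM per kilobase).

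**Figure D4:**
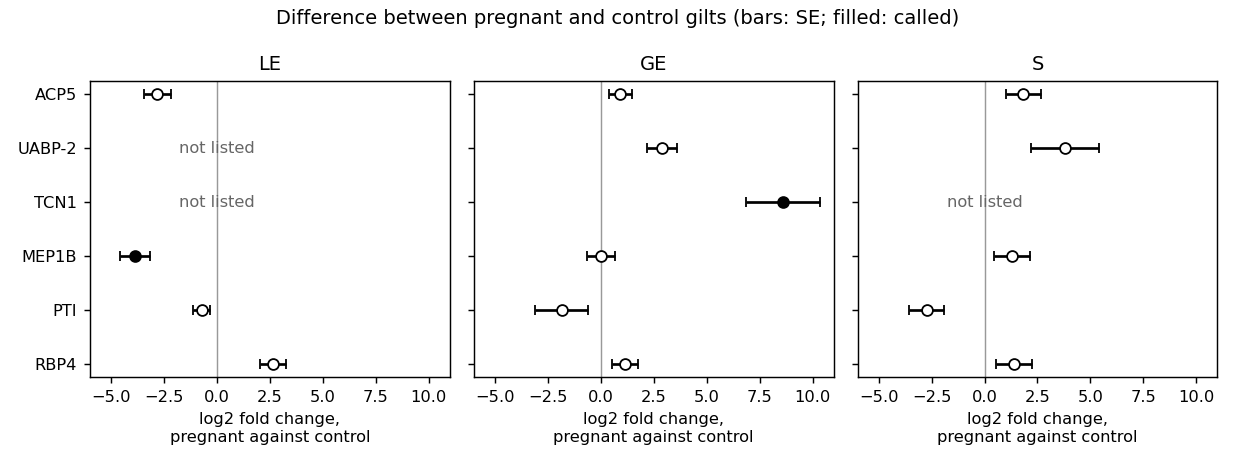
Log2 fold change of pregnant against control gilts (horizontal axis) for each gene in LE, GE and S, from the fit over all genes of that cell type. Bars are the SE, filled points passed the threshold of that cell type and open points did not. MEP1B in LE (-3.89) and TCN1 in GE are filled, and ACP5 and MEP1B lie left of 0 in LE but not in GE or S.

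Whether a gene responded unequally in 2 cell types was tested as a difference of the log2 fold changes over the 10643 genes listed for all 3. ACP5 had a response 3.70 higher in GE than in LE on the log2 scale (SE 1.03, unadjusted p = 0.00195, adjusted p = 0.106, edgeR quasi-likelihood). For MEP1B the difference between GE and LE was 3.96 (SE 1.16, unadjusted p = 0.00284, adjusted p = 0.126, edgeR quasi-likelihood). Between LE and S (LE minus S), the response differed by -4.57 (SE 1.14) for ACP5 and by -5.21 (SE 1.28) for MEP1B, both with an adjusted p of 0.221 by the same test. No member passed 0.01 in any of the 3 contrasts, nor did any other gene, while 12.5% of genes had an unadjusted p under 0.05 for GE against LE, 10.8% for LE against S and 6.05% for GE against S. With the gilt as a block, which used the shared origin of the libraries, the adjusted p of ACP5 for GE against LE was 0.0491 (fixed block, edgeR) or 0.0175 (random block, limma), still above 0.01, and 42 and 41 genes were then called. For MEP1B the same 2 fits gave adjusted p-values of 0.241 and 0.15, and for RBP4, with -1.50 unblocked and -2.16 and -1.74 blocked (GE minus LE), 0.173 and 0.353. For PTI and RBP4 the adjusted p was 0.6 or higher in all contrasts without the block (edgeR quasi-likelihood), and UABP-2, tested between GE and S alone (GE minus S), differed by -0.92 (SE 1.64, adjusted p = 0.997, edgeR quasi-likelihood).

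Counts relative to ACP5 in the same library gave a comparison that does not depend on library depth. This ratio was chosen after the values had been seen and was not tested. In GE, control gilts 02, 04, 06 and 13 held 0.629, 0.110, 0.103 and 0.292 UABP-2 counts per ACP5 count, and pregnant gilts 01, 03, 05 and 14 held 0.764, 0.841, 1.27 and 0.839. The pregnant libraries were above the controls, as for 0.231% of the other 11675 genes. In S, the controls 02, 04 and 13 held 0.533, 0.0522 and 0.00815 UABP-2 counts per ACP5 count and the pregnant gilts 01, 05 and 14 held 0.896, 1.01 and 0.905, again without overlap (0.234% of 11531 genes). The pregnant ratios in S were thus within the range of the pregnant ratios in GE.

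The ratio of MEP1B to ACP5 in GE was lower in pregnant gilts. It was 1.90, 2.004, 2.26 and 2.39 MEP1B counts per ACP5 count in control gilts 02, 04, 06 and 13. In pregnant gilts 01, 03, 05 and 14 it was 0.791, 1.21, 1.65 and 0.757. The mean ACP5 level in GE was 1701 CPM in controls and 3208 CPM in pregnant gilts, and that of MEP1B 3742 and 3791 CPM. Every pregnant ratio was below every control ratio, as for 1.23% of genes (0.231% were above), although the level of MEP1B itself did not separate the groups. In S the MEP1B ratio overlapped, at 0.644 to 2.17 in controls and 0.962 to 2.09 in pregnant gilts. RBP4 counts per ACP5 count in GE were 0.427 to 0.712 in controls and 0.613 to 0.831 in pregnant gilts, which overlapped as well.

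**Figure D5:**
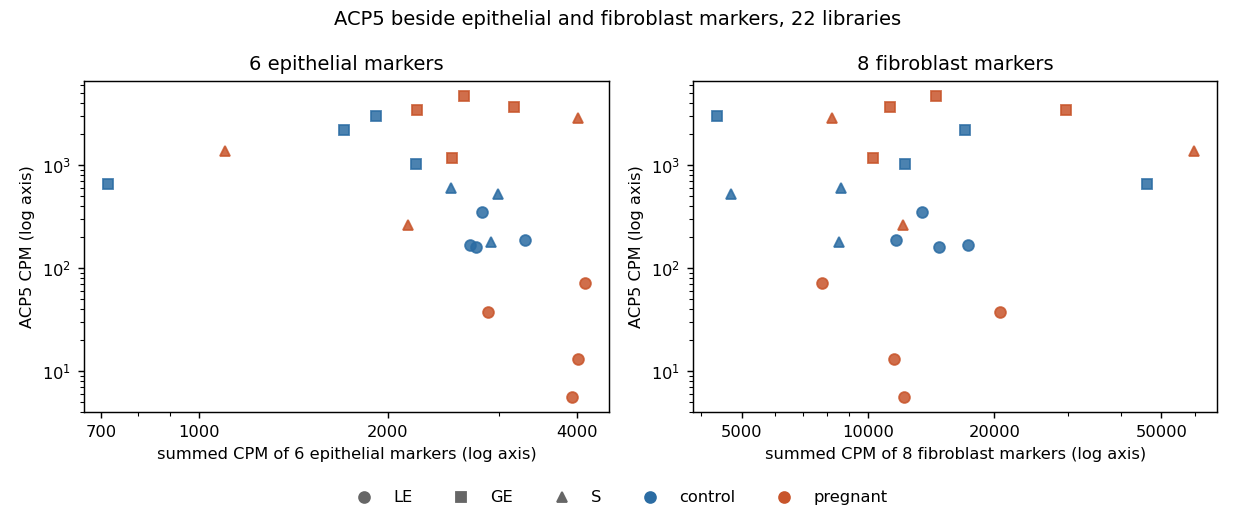
ACP5 level (vertical axis, CPM, log scale) against the summed level of 6 epithelial markers (left) and of 8 fibroblast markers (right, both in CPM on a log scale) in the 22 libraries. Circles are LE, squares GE and triangles S, blue for control and orange for pregnant gilts. The S libraries lie within the marker ranges of the epithelia apart from gilt 01 at 59660 CPM on the right, and the GE library of gilt 02 is the square at the lowest epithelial sum.

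Among the control GE libraries, gilt 13 had the lowest fibroblast sum (4359 CPM), the highest ACP5, UABP-2, MEP1B and RBP4 levels, and 0 PTI counts. Gilt 02, with the fibroblast sum of 46220 CPM, had the lowest ACP5, MEP1B and RBP4 levels of the controls, and gilt 06 had the highest PTI and the lowest UABP-2 level. Control gilt 04 was above gilt 06 in both fibroblast sum (17070 against 12220 CPM) and ACP5. Of the pregnant GE libraries, gilt 14 had the lowest fibroblast sum (10300 CPM) but the lowest ACP5, UABP-2, MEP1B and RBP4 levels. Its FOXA2 level (109 CPM) was the highest in GE. Pregnant gilt 01, with a fibroblast sum of 29700 CPM, had ACP5 at 3387 CPM. In S, pregnant gilt 05 was highest for ACP5, UABP-2, MEP1B and RBP4 and had the highest epithelial sum of the S libraries (4007 CPM). Other S libraries went the other way. Pregnant gilt 01 had the lowest epithelial sum (1100 CPM) and was next highest for the same genes. Control gilt 13 had a sum of 2921 CPM and the lowest ACP5, UABP-2 and MEP1B levels. FOXA2 was at 47.9 CPM in gilt 05 and 133 CPM in gilt 14, the pregnant S library lowest for ACP5, UABP-2, MEP1B and RBP4. The part of these unequal marker levels in the member levels was not tested.

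The genes whose log2 levels ran most closely with a member over the libraries are given as a description, since the libraries share gilts, cell types and depth. Over 22 libraries, ACP5 was most like SH3GL2 (Pearson's r = 0.95), the prostaglandin E receptor gene PTGER2 (0.943) and MEP1B (0.935), and MEP1B was most like PTGER2 (0.957). PTI was most like its neighbour LOC100158011 (0.966), then NAAA (0.946) and TSPO (0.937), and RBP4 was most like USP43 (0.886), TUBA4A (0.867) and TIMP2 (0.863). Over the 14 GE and S libraries, UABP-2 was also most like USP43 (0.939), followed by CERS4 (0.926) and SH3RF2 (0.926), and over the 8 GE libraries TCN1 was most like CPT1A (0.981). Within the 8 GE libraries ACP5 and RBP4 had the highest correlation of any member pair (r = 0.975), and PTI had negative r with every other member.

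Of 40 other genes of secreted or fluid proteins, 33 were listed for LE. Among them 6 rose in pregnant gilts (6.33% of all genes listed for LE rose) and none fell, with a median log2 fold change of 0.22 against 0.01 over all genes. The 4 with the largest change were CLU (clusterin, a secreted chaperone), from 36.0 ± 16.7 to 974 ± 1080 CPM, SPP1 (osteopontin, an integrin ligand), from 9.94 ± 6.67 to 147 ± 64.2 CPM, the membrane mucin gene MUC4, from 60.4 ± 21.8 to 363 ± 94.8 CPM, and FGF7 (a growth factor for epithelia), from 596 ± 320 to 2834 ± 800.3 CPM (all SD, 4 gilts each). In GE, 1 of 34 listed genes rose (0.574% of all genes), SLPI (secretory leukocyte protease inhibitor), whose mean was 60.2 ± 41.6 CPM in controls and 310 ± 79.6 CPM in pregnant gilts (SD, 4 gilts each). In S, 2 of 32 rose (0.425% of all genes), SPP1 with 4.80 ± 1.46 CPM in controls and 43.4 ± 7.55 CPM in pregnant gilts and SLPI with 11.11 ± 3.24 CPM in controls and 123 ± 97.3 CPM in pregnant gilts (SD, n = 3 per group). Several of these genes had been described from the same data before the list was made, so their direction is not independent evidence.

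The counts called in lists related to the members' roles stand beside 10% of all genes called in LE, 0.694% in GE and 1.47% in S. Of the protease inhibitors, 2 of 18 listed for LE rose, TIMP1 from 17.9 ± 4.81 to 77.2 ± 22.03 CPM and TIMP2 from 1011 ± 205 to 2152 ± 328 CPM (both inhibit matrix metalloproteases), SLPI was the 1 called of 17 in GE, and SLPI and TIMP1 were called of 17 in S. SLPI is also in the list of secreted or fluid proteins above, so the same gene is counted in both lists. A further list joined genes of iron handling with acid phosphatases. Of it, 1 of 13 rose in LE, the lysosomal acid phosphatase gene ACP2 (from 21.8 ± 2.72 to 57.6 ± 19.8 CPM), and no gene of iron handling was called there. None of 15 was called in GE, and 1 of 14 fell in S (CP, ceruloplasmin, a ferroxidase, from 116 ± 27.3 to 32.6 ± 4.80 CPM). Of the vitamin B12 genes, 1 of 11 rose in LE, CD320 (the cellular receptor for transcobalamin 2), from 90.3 ± 16.6 to 246 ± 77.6 CPM, and none of 10 was called in GE or S. No other astacin protease (2 listed for LE, 3 each for GE and S) and no other retinol carrier or retinol-handling gene (3 listed for LE, 2 each for GE and S) was called.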

How the data were processed

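Frozen endometrium of 8 gilts was sectioned and LE, GE and S were captured by laser. The authors prepared libraries with the Ovation SoLo kit, removed 5 bases from read starts, mapped with Hisat2 to Sscrofa11.1, collapsed PCR copies that carried the same random adapter bases and filtered genes by CPM. The deposited values are raw counts per gene in 1 table per cell type, with gene IDs. The counting tool and its strand setting are not given in the sources used here. No column of per-sample values went unused (0).

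The 6 genes and all gene lists were chosen with earlier results of these data known. Names came from the reference by gene ID. Libraries were separate gilts, and the highest correlation between any 2 libraries was 0.9645, so none was taken as a repeat. CPM used TMM effective sizes over the genes listed in all 3 tables (edgeR 4.0.16, R 4.3.3), and log2 CPM a prior count of 2. Pregnant and control libraries were compared in each table over all listed genes by edgeR's quasi-likelihood test with Benjamini-Hochberg adjustment. Genes were called at FDR below 0.01 in LE and at unadjusted p below 0.0021 in GE and S, the thresholds of the study. In the study, 0.0021 was the p that matched its FDR threshold in LE. With the test used here the 2 did not match, and the threshold in LE was the stricter one. The study names edgeR but not the test, and it reported more genes in each cell type than were called here. A member not called here may therefore have been called in the study. The difference of responses was fitted over 22 libraries. SE is the fold change divided by the square root of F. Intervals and floors of 3 counts cover counting error only. In data simulated with 200 changed genes at a log2 change of 2, 146 of 200 were found with 4 false calls in LE (11415 genes), 149 with 29 in GE (11676) and 136 with 19 in S (11532).

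Libraries of the same gilt came from the same animal, so the gilt pairs the cell types: the median correlation of their deviations from the group means was 0.257 for GE with LE, 0.468 for GE with S and 0.314 for LE with S, against -0.0754, -0.222 and -0.191 for other gilts. Pregnant and control gilts share no number. The blocked fits used edgeR (fixed) and limma 3.58.1 (random, consensus correlation 0.268). Named genes were the members, the 3 genes most correlated with each member at a mean of at least 10 CPM, and per list up to 4 called genes by largest fold change, and neighbours of PTI were named after their values were seen. Alternatives were RLE and library size scaling, filters on low counts, a prior count of 0.5, other gene lengths, the likelihood ratio test, DESeq2 1.42.0, FDR below 0.05, the 6 gilts with an S library, and each gilt left out. The length of the longest mRNA, the TCN1 ratio without its highest library, a fit of GE and S alone for UABP-2, and size factors without the members and the 50 most abundant genes were chosen after seeing the data.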

Additional observations from a re-analysis of the deposited data

Results flagged for a closer look

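The 20 groups of 4 libraries were screened on CPM for a library far from the others (Dixon's criterion), and 4 were met. Chance meets it in about 1 of 20 groups only where values are normally distributed, which CPM need not be. ACP5 in LE of control gilt 06 was at 352.5 CPM, with the other controls at 158 to 187 CPM. RBP4 in GE of pregnant gilt 14 was at 899.6 CPM, with the others at 2814 to 2966 CPM. TCN1 in GE of pregnant gilt 03 was at 168.5 CPM, with the others at 2.13 to 23.6 CPM. TCN1 in GE of control gilt 02 was at 0.4055 CPM, the level of 1 count, with the others at 0. With the others at 0 any count meets the criterion, so this flag carries no weight.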

How the results depend on the processing

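Depth limits TCN1, with 1 control count, and MEP1B in LE of pregnant gilts, with 97 counts in 4 libraries. With 4 or 3 gilts a group, calls near a threshold moved with the test and the gilts kept. The members called in LE were 1 (MEP1B), and 2 with library size scaling, 3 with the likelihood ratio test, 3 with DESeq2 and 3 at FDR below 0.05 (ACP5, MEP1B and RBP4 in these 3), and 0 to 2 with a gilt left out. With the 6 gilts, and with at least 10 counts in every library, which left MEP1B untested, the 1 called was ACP5. Those called in GE were 1 (TCN1), and 0 with edgeR's expression filter, 0 with at least 10 counts in every library, 2 with the likelihood ratio test and 2 with DESeq2 (UABP-2 and TCN1), 0 at FDR below 0.05, 0 with the 6 gilts alone, and 0 to 2 with a gilt left out. In S none (0) was called, and 1 (PTI) by the likelihood ratio test and 1 by DESeq2.

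Over all genes, calls in LE numbered 1146, and 2072 by the likelihood ratio test, 2182 by DESeq2, 2557 at FDR below 0.05, 435 with the 6 gilts, and 588 to 1643 with a gilt left out. In GE they numbered 81, and 185, 241, 2 and 35 under the same settings, 50 with at least 10 counts in every library, and 42 to 100 with a gilt left out. In S they numbered 170, and 463 by the likelihood ratio test, 512 by DESeq2, 29 at FDR below 0.05, and 65 to 221 with a gilt left out.

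The fold change of MEP1B in GE, near 0, turned to -0.011 with library size scaling and to -0.39 with the 6 gilts, and ranged from -0.28 to 0.54 with a gilt left out (-0.27, -0.22, -0.28 and -0.12 without gilts 02, 03, 05 and 06). The difference of PTI responses between GE and LE was -1.15, turned to 1.003 with the gilt as a random replicate block, and ranged from -1.78 to 0.35 with a gilt left out (0.35 without gilt 06). That of PTI between GE and S, 0.87, ranged from -0.35 (without gilt 01) to 2.40, and that of RBP4, -0.23, from -1.63 to 0.63 (0.26, 0.38 and 0.63 without gilts 04, 05 and 13). The level of RBP4 in LE against S, 0.10, ranged from -0.18 to 0.30 (-0.03 and -0.18 without gilts 01 and 14). None of these was called, and the cause was not tested. By the longest mRNA, RBP4 was at 1014, 1442 and 872 CPM per kilobase in LE, GE and S. The replicate block left the number of members called in each contrast at 0.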

Other observations

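The epithelial markers themselves were unequal between groups in LE: KRT8 was at 1041 ± 92.4 CPM in controls and 402 ± 113 CPM in pregnant gilts and KRT19 at 156 ± 18.9 and 34.2 ± 24.5 CPM, while CDH1 rose from 942 ± 80.9 to 1807 ± 400.2 CPM and CLDN4 from 294 ± 43.4 to 995 ± 192 CPM (SD, n = 4 per group). All 4 passed the LE threshold by edgeR's quasi-likelihood test, with adjusted p-values of 0.0019, 0.00678, 0.00978 and 0.000282. In GE and S none of the 6 epithelial markers was called by itself. All 8 fibroblast markers had a negative log2 fold change in GE (median -0.51) and all 8 a positive one in S (median 1.55), and none was called.

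TLL1, an astacin protease of the group of meprin beta, named here after its value was seen, was at 4.27 ± 1.75 CPM in control and 20.5 ± 10.5 CPM in pregnant GE (SD, n = 4 per group). Its unadjusted p of 0.00223 (adjusted p = 0.306, edgeR quasi-likelihood) was just above the GE threshold.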
